A study of Mus musculus with 24 samples.

Results

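This account covers 210 transcripts of the mouse embryonic forelimb that were abundant in RNA sequencing and gave no or almost no ribosome-protected fragments (RPF). The transcripts were chosen by measured values: a summed count of at least 2500 over the 12 RNA libraries, and a summed RPF count under 0.1% of that RNA count over the 12 RPF libraries. They are 210 of the 21960 transcript rows of the count table and 210 of the 9264 rows that reached 2500 RNA counts; 1 further row was left out by its ID. The choice used sums over all genotypes, so abundance and lack of footprints are described without a test, and RNA levels across genotypes are tested. A row that is high in a single group can pass the limit on abundance through that group. In the contrasts between a pair of genotypes, it is said beside the call where this applies to a called member. For the test of whether the Rps6 change depended on p53 this was not checked.

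Forelimbs were taken from embryos at E10.5, and each of the 4 genotypes had 3 replicate pools, each made from limb pairs of a pair of embryos. The genotypes were Rps6lox/+;Trp53+/+ (Rps6 WT, Trp53 WT), Prx1Cre;Rps6lox/+;Trp53+/+ (Rps6 het, Trp53 WT), Rps6lox/+;Trp53-/- (Rps6 WT, Trp53 null) and Prx1Cre;Rps6lox/+;Trp53-/- (Rps6 het, Trp53 null). All 4 genotypes carry the floxed Rps6 allele on one chromosome, and Prx1Cre drives Cre in limb bud mesenchyme, so cells of other lineages in the same forelimb keep both Rps6 copies, whereas the Trp53 null alleles are present in every cell. Every Rps6 het pool carries Prx1Cre and no Rps6 WT pool does. An effect of Cre and an effect of losing an Rps6 copy therefore cannot be told apart in these contrasts. Each pool gave an RNA library from ribosomal-RNA-depleted total RNA and an RPF library, both from lysates that had been cleared by centrifugation.

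Ribosome profiling sequences the pieces of RNA that ribosomes shield from RNase, so a messenger RNA in translation gives footprints along its coding sequence. RNAs that act without being translated, among them long noncoding RNAs and the small structured RNAs of splicing and RNA modification, are sequenced in total RNA and give few or no footprints. Rps6 is a protein of the small ribosomal subunit, and a shortage of ribosomal proteins is known to stabilise p53, the transcription factor that Trp53 encodes. The table pairs no transcript ID with a gene name, so the members are given by ID and their gene, length and class are not known here. By the name of the table, RPF counts cover coding sequences: a row with no annotated coding sequence can hold no RPF count, and a count of 0 does not by itself show that no ribosome was on the RNA. For the same reason Rps6, Trp53 and marker genes of the limb could not be checked against the labels.

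RNA libraries held 14291854 to 29104669 counts and RPF libraries 7026056 to 16835045. Replicates of a genotype differed by more than sampling noise in every pair, with a chi-square statistic per degree of freedom of 3.10 to 17.1 in RNA. All 210 members passed the filter on low counts and were among the 14411 transcripts tested.

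The lack of footprints set a small group of rows apart from a continuous bulk. Of the members, 193 had 0 RPF counts in all 12 RPF libraries and 17 had at least 1. Among the 9053 other rows with at least 2500 RNA counts, the median ratio of RPF to RNA counts was 0.469, with quartiles of 0.288 and 0.699. Between a ratio of 0.001 and a ratio of 0.01 there were 17 rows, whereas 351 rows lay between 0.01 and 0.1 and 7978 between 0.1 and 1. At the limit of the rule, ENSMUST00000024817.14 lay just inside with 4 RPF counts to 4103 RNA counts (0.0975%), and ENSMUST00000110998.8 lay just outside with 7 to 6209 (0.113%). At the limit on abundance, ENSMUST00000217802.1 lay just inside with 2525 RNA counts and ENSMUST00000142942.7 just outside with 2471, both with 0 RPF counts. A count of 0 allows up to 3 counts, and for 28 members 3 counts would come to 0.1% or more of their RNA count, so a share at the limit could not have been detected for them.

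**Figure D1:**
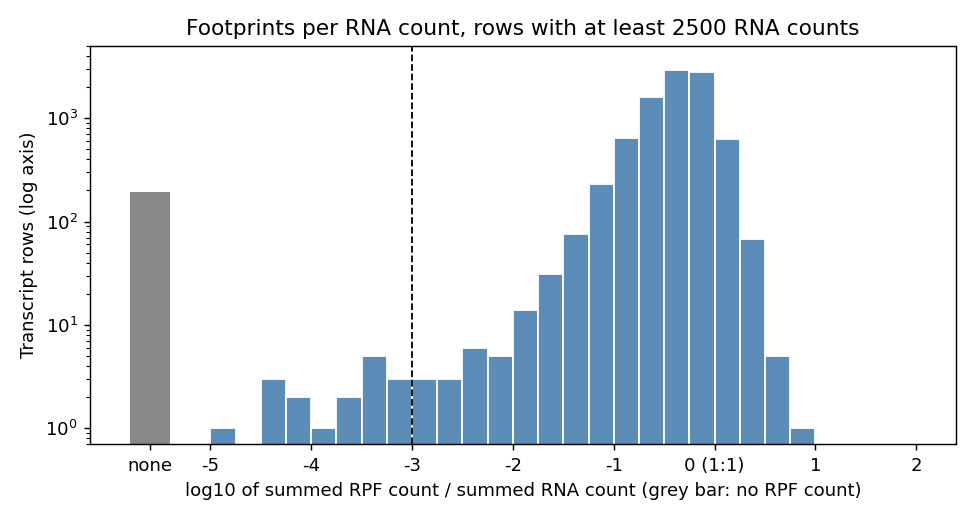
Distribution of the log10 ratio of summed RPF to summed RNA counts (x axis) over the transcript rows with at least 2500 RNA counts; the y axis counts rows on a log scale, the grey bar holds the rows with no RPF count, and the dashed line is the limit of 0.001 used to choose the members. The grey bar holds 194 rows, which include the 1 row left out by its ID, and it stands apart from the bulk of rows between 0.1 and 1.

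Footprints on the members were few and concentrated. The members together held 319 of the 137108086 RPF counts, or 11 to 42 per library. ENSMUST00000228850.1 had 153 of them (0.0448% of its 341190 RNA counts) and ENSMUST00000109096.8 had 137 (0.0692% of 198015), so this pair held 290 of the 319. Both were seen in every RPF library, the first with 4 to 20 counts and the second with 7 to 24. The other 15 members with footprints shared 29 counts, and 7 of them had 1 count each.

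In RNA the members took 13639610 of 255607654 counts, or 5.34%, and most of that came from a few of them. Transcript lengths are not given, so the order below is one of reads and not of molecules. The leading member, ENSMUST00000083103.1, held 5757280 counts (42.2% of the members' total), and the 10 most abundant held 79.6%. The median member had 6729 RNA counts over the 12 libraries. In CPM, counts scaled by library size, ENSMUST00000083103.1 was at 15093, 22735 and 19017 in the pools of Rps6 WT, Trp53 WT and at 20719, 23811 and 23520 in those of Rps6 het, Trp53 WT. It was at 28289, 33226 and 21528 CPM in Rps6 WT, Trp53 null and at 23877, 27303 and 18019 in Rps6 het, Trp53 null. Its level thus ranged 2.20-fold over the 12 pools, and pools of every genotype overlapped those of at least one other.

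The 10 most abundant members fell into a variable and a steady set. ENSMUST00000083767.1 ranged from 1723 to 5325 CPM over the pools, ENSMUST00000083011.1 from 906 to 2811, ENSMUST00000083242.1 from 424 to 1490.1 and ENSMUST00000084010.1 from 335 to 941. These 4, the leading member and ENSMUST00000175096.1, the second in abundance, had their lowest level in replicate 1 of Rps6 WT, Trp53 WT and their highest in replicate 2 of Rps6 WT, Trp53 null. The other 4 ranged less. ENSMUST00000109096.8 stayed between 710.0 and 860.0 CPM, ENSMUST00000192863.2 between 536 and 688, ENSMUST00000228850.1 between 1087 and 1562, and ENSMUST00000136359.7, the third in abundance, between 3572 and 5699.

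Spread between pools of one genotype also differed widely over all the members. The SD of log2 CPM within genotypes was 0.177 at the median member, from 0.0315 to 0.659, against 0.0758 at the median of the 9053 other abundant rows. At matched depth the members still spread more: 0.160 against 0.108 among rows with 2500 to 5000 RNA counts, and 0.284 against 0.0567 among rows with 50000 or more. An SD above 0.2 was found in 99 members (47.1%) and in 162 of the other abundant rows (1.79%). The limit of 0.2 was chosen after the values were seen, and the split is a description with no test. Among the members the largest SD below the limit was 0.193 and the smallest above it 0.204. The 99 variable members held 77.9% of the members' RNA counts, and the 111 steady members 22.1%.

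The variable members moved together from pool to pool. In replicate 2 of Rps6 het, Trp53 null their median deviation from the genotype's mean was 0.58 on the log2 scale, and it was -0.28 and -0.30 in the other pools of that genotype. In Rps6 WT, Trp53 WT the median deviation was -0.28, 0.34 and -0.01 in replicates 1 to 3, and in Rps6 WT, Trp53 null it was -0.22, 0.17 and 0.05. The pools of Rps6 het, Trp53 WT lay closer together, at 0.11, -0.10 and 0.03. Over the 12 deviations, which share library, depth and scaling, the median Pearson's r was 0.586 among the 4851 pairs of variable members and 0.00519 among pairs of steady members. The variable rows that are no members also moved together, with a median r of 0.491. The deviations most like those of the leading member were those of ENSMUST00000175096.1 (r = 0.966), ENSMUST00000226420.1 (r = 0.955) and ENSMUST00000131011.1 (r = 0.875), each over 12 libraries; the last is a steady member, with an SD of 0.079.

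**Figure D2:**
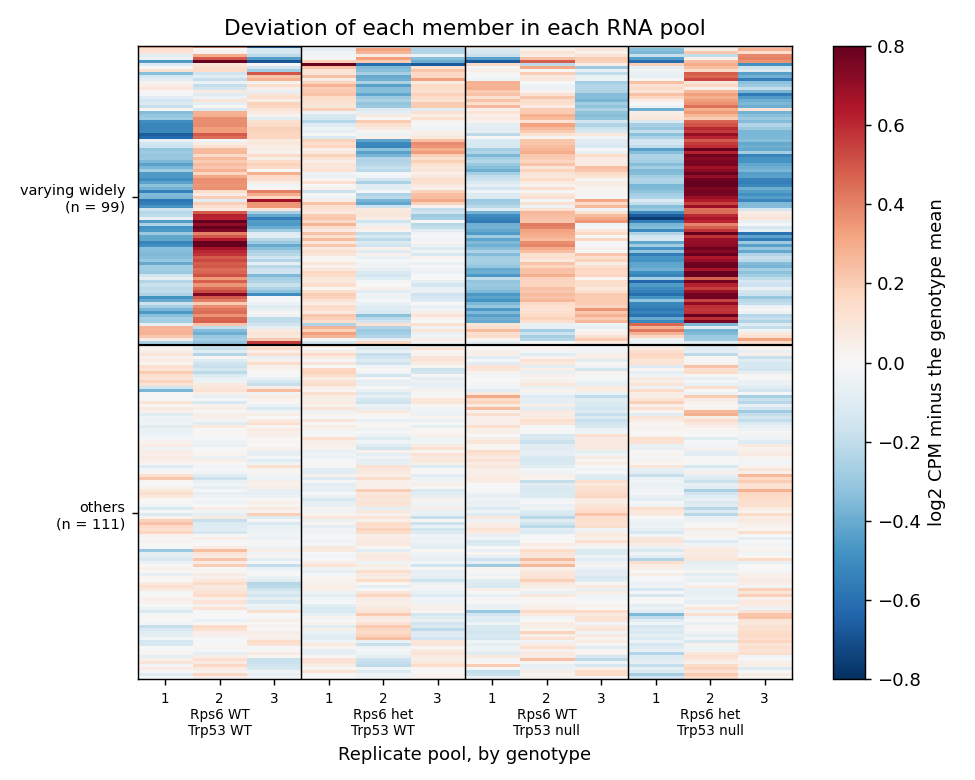
Deviation of log2 CPM from the mean of its genotype for each of the 210 members (rows) in each of the 12 RNA pools (columns, 3 replicates in each of 4 genotypes), with colours cut at 0.8 in either direction; the 99 variable members are above the horizontal line and the 111 steady members below. Replicate 2 of Rps6 het, Trp53 null is high for most variable members, with a median of 0.58, and the steady members stay pale.

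One feature that the rule did not use differed between these sets, namely the version number of the transcript ID, which Ensembl raises when a transcript model is revised. Version 1 was carried by 117 of the 210 members (55.7%) and by 511 of the 9053 other abundant rows (5.64%). Among the variable members the share was 79 of 99 (79.8%), among the steady ones 38 of 111 (34.2%), and among the 162 variable rows that are no members 23 (14.2%).

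The share of an RNA library taken by the members was highest in Rps6 WT, Trp53 null. It was 3.93%, 5.34% and 4.72% of counts in the pools of Rps6 WT, Trp53 WT, and 6.38%, 7.36% and 5.71% in those of Rps6 WT, Trp53 null. It was 4.98%, 5.32% and 5.34% in Rps6 het, Trp53 WT, and 5.30%, 6.34% and 4.64% in Rps6 het, Trp53 null. The pools of Rps6 WT, Trp53 null lay above those of Rps6 WT, Trp53 WT without overlap, at 6.48% ± 0.833 against 4.67% ± 0.706 (SD, n = 3). The difference of 1.82 percentage points had an exact two-sided permutation p of 0.1, the smallest that 3 against 3 pools allow, and an adjusted p of 0.4 over the 4 comparisons. Without the leading member the difference was 1.00 percentage points. The other differences were smaller: Rps6 het against Rps6 WT differed by 0.544 percentage points in Trp53 WT (exact permutation p = 0.4, adjusted 0.533) and by -1.06 in Trp53 null (exact p = 0.2, adjusted 0.4). The first was 0.178 without replicate 1 and 0.883 without replicate 2 of Rps6 WT, Trp53 WT, and the second was -0.62 without replicate 2 of Rps6 WT, Trp53 null and -0.668 without replicate 3 of Rps6 het, Trp53 null. Trp53 null against Trp53 WT differed by 0.215 percentage points in Rps6 het (exact p = 0.9, adjusted 0.9), and without replicate 2 of Rps6 het, Trp53 null this turned to -0.24; it was 0.606 without replicate 3 of that genotype and 0.0981 without replicate 1 of Rps6 het, Trp53 WT. In 3 of the 4 genotypes the pool with the fewest RNA counts had the highest member share, and the part of depth in these differences was not tested.

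**Figure D3:**
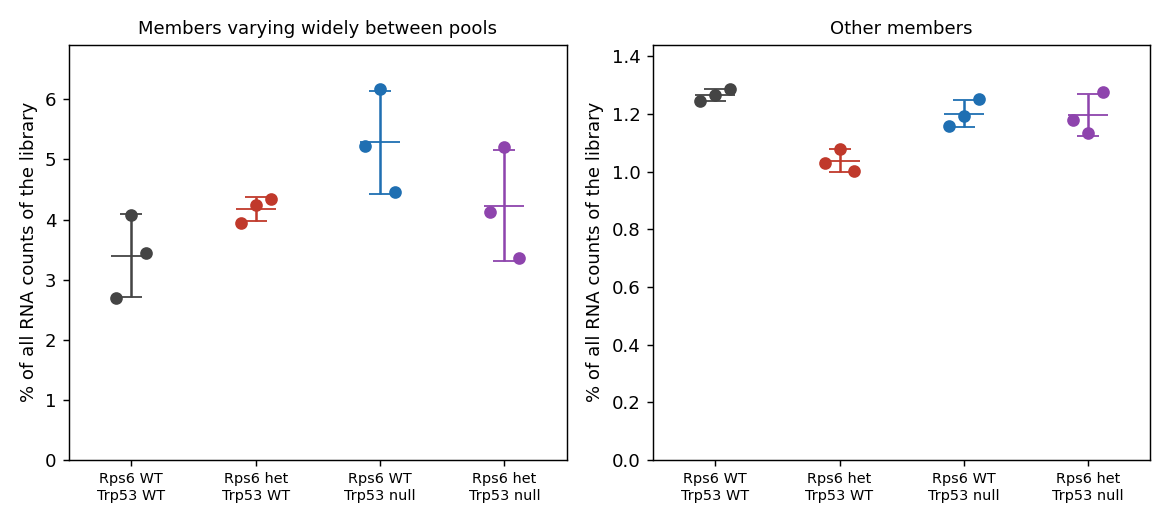
Share of each RNA library's counts (y axis, percent) taken by the 99 variable members (left) and the 111 steady members (right) in each genotype; points are the 3 pools, the long bar is their mean and the error bars are the SD. The variable members ranged from 2.69% to 6.17% of a library and the steady ones from 1.00% to 1.29%, the latter lowest in Rps6 het, Trp53 WT. Of the steady members' 3014894 RNA counts, 1259167 were of ENSMUST00000136359.7, which was itself lowest in that genotype.

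The change in these RNAs with Prx1Cre and loss of an Rps6 copy in the limb mesenchyme was tested first in the presence of p53. In Rps6 het, Trp53 WT against Rps6 WT, Trp53 WT, 53 of the 210 members (25.2%) rose and 17 (8.1%) fell at an adjusted p under 0.05 (edgeR quasi-likelihood test), beside 13.1% and 11.7% of all 14411 transcripts tested. The median log2 fold change was 0.19 for the members and 0.01 for all transcripts. It was 0.55 for the variable members, of which 34 rose and 2 fell. For the steady members it was -0.01, and 19 rose and 15 fell. For the 162 variable rows that are no members it was 0.26, and 28 were called higher and 13 lower. The median SE was 0.235 for the variable members and 0.148 for those rows, so these sets are not matched on spread. The members' count depended on single pools. It was 33 without replicate 1 and 28 without replicate 3 of Rps6 WT, Trp53 WT, and 30 and 33 without replicates 1 and 3 of Rps6 het, Trp53 WT. In these 4 refits 15.7%, 13.3%, 14.3% and 15.7% of the members were called in either direction, beside 20.3%, 15.2%, 15.7% and 17.5% of all transcripts, so the members' share was below that of all transcripts, whereas with all pools it was 33.3% against 24.8%. By the DESeq2 Wald test with all pools, 20% of the members were called, beside 22.1% of all transcripts. Of the members called by edgeR, 3 that rose and 1 that fell would have summed to under 2500 RNA counts with the higher group's pools at the mean level of the lower group.

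ENSMUST00000217223.1 had the smallest p among the members that rose. It was at 15.9, 15.9 and 14.0 CPM in Rps6 WT, Trp53 WT and at 23.0, 22.5 and 23.0 in Rps6 het, Trp53 WT, and the groups did not overlap. The log2 fold change was 0.58 ± 0.081 (SE), with an adjusted p of 0.000112 by the edgeR test. ENSMUST00000185789.2 went from 110.9, 108.0 and 91.6 CPM to 151.1, 123.8 and 149.6, again without overlap, a log2 fold change of 0.45 ± 0.076 (adjusted p = 0.00054, edgeR).

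Among the members that fell, ENSMUST00000156068.2 was at 103, 113 and 126 CPM in Rps6 WT, Trp53 WT and at 63.4, 62.5 and 69.5 in Rps6 het, Trp53 WT. All 3 Rps6 het pools lay below all 3 Rps6 WT pools, and the log2 fold change was -0.81 ± 0.079 (SE; adjusted p = 3.84e-06, edgeR). ENSMUST00000136359.7, the third most abundant member, went from 5241, 5686 and 5649 CPM to 3605, 4349.8 and 3572. Its groups did not overlap either, and the log2 fold change was -0.52 ± 0.081 (adjusted p = 0.000283, edgeR). Both are steady members.

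Of the other members among the 10 most abundant, ENSMUST00000192863.2 fell, from 668, 655 and 688 CPM to 536, 584 and 585 (log2 fold change -0.24 ± 0.058, adjusted p = 0.00721, edgeR). ENSMUST00000228850.1, the member with the most footprints, fell by 0.20 ± 0.069 on the log2 scale (adjusted p = 0.0454, edgeR), ENSMUST00000083242.1 rose by 0.72 ± 0.253 (adjusted p = 0.0493) and ENSMUST00000175096.1 rose by 0.46 ± 0.160 (adjusted p = 0.046). These last 3 calls were near the threshold, and each was lost when replicate 1 or replicate 3 of Rps6 WT, Trp53 WT, or replicate 2 or replicate 3 of Rps6 het, Trp53 WT, was left out.

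In the Trp53 null background 0 members were called for Rps6 het against Rps6 WT by the edgeR test. Over all transcripts 0.0208% were called higher and 0.0486% lower. The smallest adjusted p of a member was 0.115. At an unadjusted p under 0.05 there were 44 members, 2 of them higher and 42 lower, beside 5.73% and 5.54% of all transcripts. The DESeq2 Wald test called 1 member (0.476%), beside 0.312% of all transcripts. The median log2 fold change was -0.13 for the members, against -0.01 for all transcripts, -0.37 for the variable members and -0.14 for the variable rows that are no members. Pools did not overlap for 4 members (1.9%) with higher and 14 (6.67%) with lower levels in Rps6 het, beside 7.74% and 7.32% of all transcripts. Without replicate 2 of Rps6 het, Trp53 null, the pool in which the variable members stood highest against their genotype, 21 members (10%) were called, all 21 lower, beside 0.0479% of all transcripts called higher and 0.274% called lower in the same refit.

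Whether the Rps6 change depended on p53 was tested as the difference between its log2 fold change in Trp53 WT and that in Trp53 null; this contrast uses the same pools as those above. The difference was positive and called in 39 members (18.6%) and negative and called in 5 (2.38%), beside 5.07% and 4.48% of all transcripts. Its median was 0.29 for the members and 0.01 for all transcripts. Of the 99 variable members 31 were called, all 31 positive, and their median was 0.98, against 0.40 for the variable rows that are no members. Of those 162 rows, 18 were called with a positive and 8 with a negative difference. Of the steady members 8 were called with a positive and 5 with a negative difference. Whether any called member reached the limit on abundance only through a high group was not checked for this contrast. The count of 44 (21% of the members, beside 9.55% of all transcripts) ranged from 6, without replicate 2 of Rps6 WT, Trp53 null, to 85, without replicate 2 of Rps6 het, Trp53 null. These were 2.86% and 40.5% of the members, beside 4.74% and 12.4% of all transcripts. It also moved by over 1.5 times without either of 2 pools in each Trp53 WT genotype, to 17 and 16 without replicates 1 and 3 of Rps6 WT, Trp53 WT (8.1% and 7.62%, beside 7.35% and 4.46% of all transcripts) and to 9 and 9 without replicates 1 and 3 of Rps6 het, Trp53 WT (4.29% each, beside 4.4% and 5.58%). It was 28 without replicate 1 and 13 without replicate 3 of Rps6 het, Trp53 null (13.3% and 6.19%, beside 9.14% and 5.1%).

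The 4 transcripts described first for the Rps6 change showed the difference in single pools. ENSMUST00000217223.1 was at 18.9, 18.2 and 19.4 CPM in Rps6 WT, Trp53 null and at 15.8, 18.9 and 15.5 in Rps6 het, Trp53 null, where the pools overlapped, and the difference of the log2 fold changes was 0.76 ± 0.116 (SE; adjusted p = 0.00107, edgeR). ENSMUST00000185789.2 was at 115.8, 115.4 and 111.3 CPM against 102.5, 111.3 and 111.2, with a difference of 0.53 ± 0.108 (adjusted p = 0.00781, edgeR). For this pair the highest pools in the series were those of Rps6 het, Trp53 WT. ENSMUST00000156068.2 was at 95.1, 95.5 and 101.5 CPM against 90.4, 85.5 and 105.5, with a difference of -0.76 ± 0.111 (adjusted p = 0.000729, edgeR). ENSMUST00000136359.7 was at 4675, 5256 and 5329.6 CPM against 4832, 4825 and 5699, with a difference of -0.53 ± 0.115 (adjusted p = 0.0108, edgeR). For both, the 3 lowest pools in the series were those of Rps6 het, Trp53 WT.

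Of the variable members among the 10 most abundant, 3 had a called difference. It was 0.88 ± 0.226 for ENSMUST00000175096.1 (adjusted p = 0.0252, edgeR), 1.36 ± 0.358 for ENSMUST00000083242.1 (adjusted p = 0.0279) and 0.95 ± 0.278 for ENSMUST00000084010.1 (adjusted p = 0.0419). In ENSMUST00000083242.1 the levels were 424, 772 and 654 CPM in Rps6 WT, Trp53 WT and 1020, 909 and 1114 in Rps6 het, Trp53 WT. They were 1190.4, 1490.1 and 1344 CPM in Rps6 WT, Trp53 null and 675, 1357 and 548 in Rps6 het, Trp53 null, so replicate 2 of the last genotype lay at the level of Rps6 WT, Trp53 null while the other pools lay far below it. Each of these 3 calls was lost without replicate 1 or replicate 3 of Rps6 WT, Trp53 WT, without replicate 3 of Rps6 het, Trp53 WT, without replicate 2 of Rps6 WT, Trp53 null and without replicate 3 of Rps6 het, Trp53 null.

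**Figure D4:**
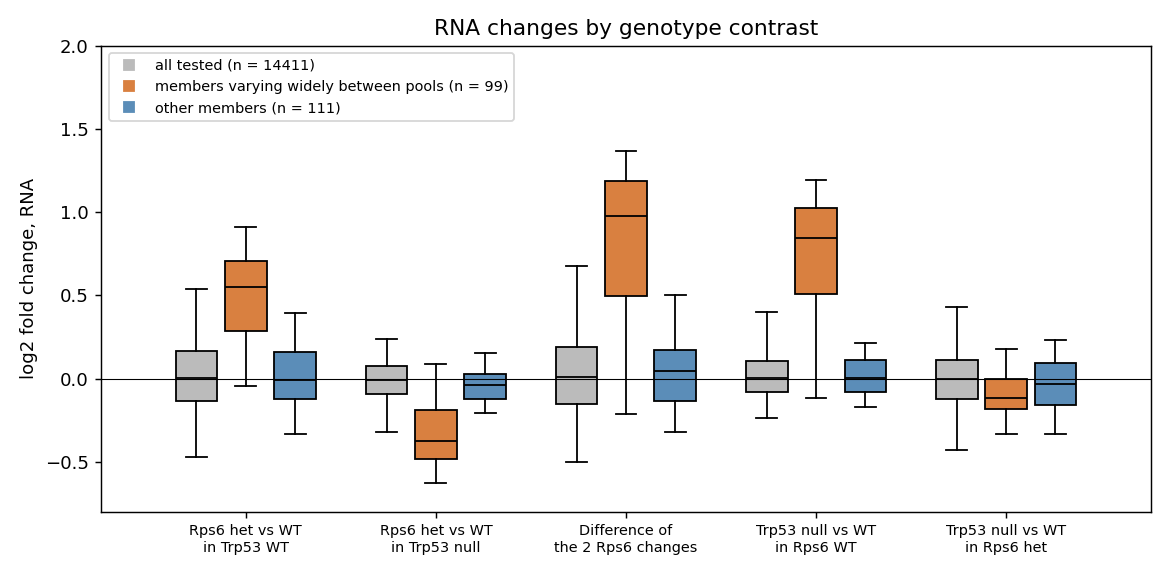
Log2 fold changes of RNA (y axis) in the 5 contrasts for all 14411 transcripts tested (grey), the 99 variable members (orange) and the 111 steady members (blue); boxes span the quartiles with the median as a line, and whiskers end at the 5th and 95th percentiles. The variable members have medians of 0.55, -0.37, 0.98, 0.84 and -0.11 from left to right, and the medians of the steady members stay between -0.04 and 0.05.

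Loss of p53 with both Rps6 copies present was compared between Rps6 WT, Trp53 null and Rps6 WT, Trp53 WT. By the edgeR test 2 members (0.952%) rose, 1 of which reached the limit on abundance only through its Trp53 null pools, and 0 fell, beside 0.0625% and 0.0555% of all transcripts. At an unadjusted p under 0.05 there were 89 members higher and 10 lower, beside 8.1% and 6.65% of all transcripts. DESeq2 called 4 members (1.9%), all 4 higher, beside 0.444% of all transcripts in either direction. Pools did not overlap for 84 members (40%) with higher and 14 (6.67%) with lower levels in Trp53 null, beside 11.7% and 10.8% of all transcripts, and 70 of the 84 were variable members. The median log2 fold change was 0.15 for the members, 0.00 for all transcripts and 0.84 for the variable members, of which 91 of 99 were higher. Since the variable members moved together from pool to pool, counts of them are not counts of separate changes, here or in the other contrasts. The 162 variable rows that are no members had a median of 0.26, and 128 of them (79%) were higher. The mean level was highest in Rps6 WT, Trp53 null for 118 members (56.2%, against 25.1% of all transcripts) and lowest in Rps6 WT, Trp53 WT for 117 (55.7%, against 27.2%). All 12 RNA libraries share a common estimate of the spread, so pools that this contrast does not compare can change its calls. The count of calls was unstable: without replicate 1, 2 or 3 of Rps6 het, Trp53 null, it was 5, 58 and 32, or 2.38%, 27.6% and 15.2% of the members, beside 0.144%, 0.725% and 0.836% of all transcripts. It was 1 without any one of 6 pools, namely replicates 1 and 3 of Rps6 WT, Trp53 WT, replicates 1 and 3 of Rps6 het, Trp53 WT, and replicates 1 and 2 of Rps6 WT, Trp53 null.

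That member, ENSMUST00000177150.1, had 0 RPF counts and 4032 RNA counts, of which 3617 came from the 6 Trp53 null pools and 415 from the 6 Trp53 WT pools. It is a member because of the pools in which it is high, so its levels are a description and no test is given for its Trp53 change. It was at 2.04, 2.35 and 2.20 CPM in Rps6 WT, Trp53 WT (46, 47 and 59 counts) and at 37.7, 29.3 and 35.4 CPM in Rps6 WT, Trp53 null (810, 412 and 588 counts). The groups did not overlap, and the fitted log2 fold change was 3.96. In Rps6 het, Trp53 null it was at 28.5, 30.8 and 17.8 CPM, and in Rps6 het, Trp53 WT at 8.19, 2.16 and 2.06 CPM. All 6 Trp53 null pools thus lay above all 6 Trp53 WT pools, and replicate 1 of Rps6 het, Trp53 WT lay above the other Trp53 WT pools. Its Rps6 change was not called in either background by the edgeR test.

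The other member called in that contrast was ENSMUST00000175096.1. Its levels were 3518, 5538 and 4016 CPM in Rps6 WT, Trp53 WT and 8332, 9467 and 6365 in Rps6 WT, Trp53 null, without overlap, a log2 fold change of 0.89 ± 0.161 (SE; adjusted p = 0.0442, edgeR). In Rps6 het it was at 5433, 6021 and 6547 CPM with Trp53 and at 6332, 6858 and 4862 without, where the pools overlapped. Its call for Trp53 held without replicate 2 of Rps6 WT, Trp53 WT, without replicate 3 of Rps6 WT, Trp53 null and without replicate 2 or replicate 3 of Rps6 het, Trp53 null, and was lost without any one of the other 8 pools.

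**Figure D5:**
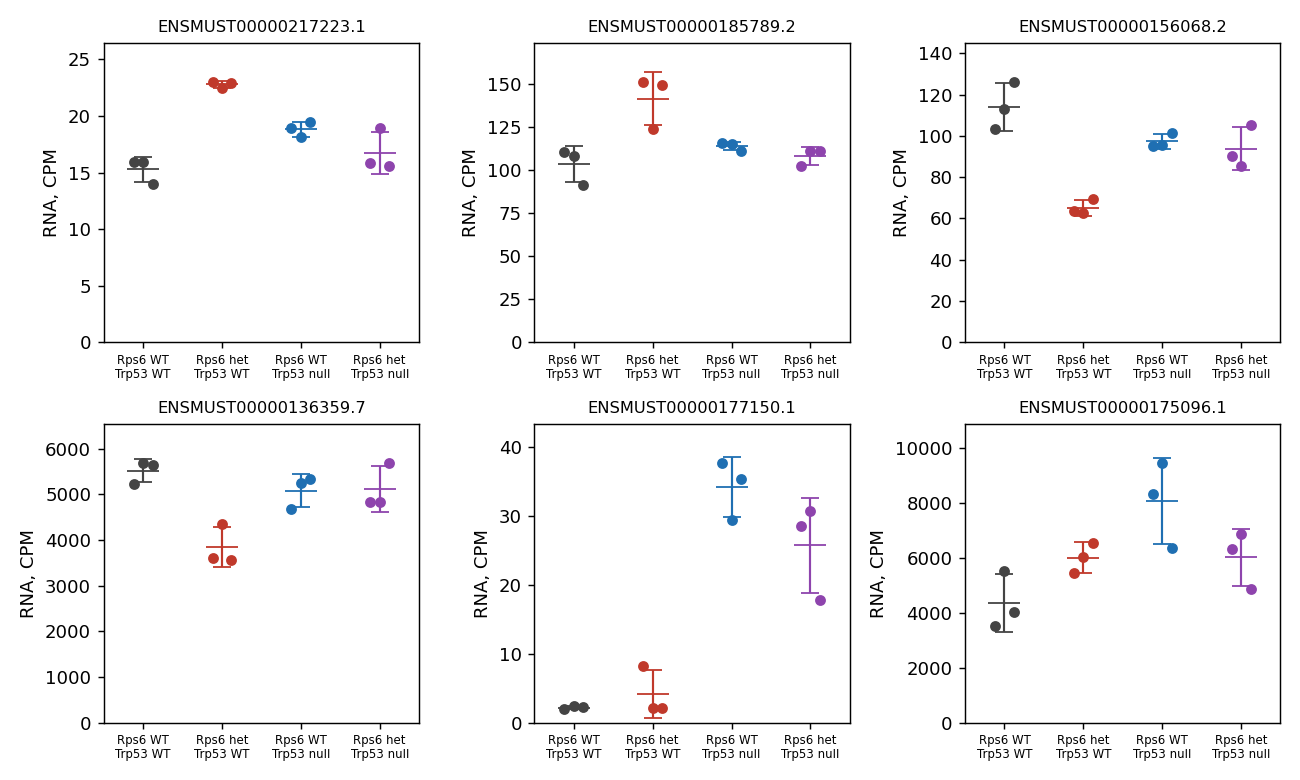
RNA level in CPM (y axis, from 0) of 6 members in the 4 genotypes; points are the 3 pools, the long bar is their mean and the error bars are the SD. Rps6 het, Trp53 WT is the highest genotype for ENSMUST00000217223.1 and ENSMUST00000185789.2 and the lowest for ENSMUST00000156068.2 and ENSMUST00000136359.7, and ENSMUST00000177150.1 is at 17.8 to 37.7 CPM in Trp53 null and at 2.04 to 8.19 in Trp53 WT.

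Loss of p53 in Rps6 het was compared between Rps6 het, Trp53 null and Rps6 het, Trp53 WT. Of the members 5 (2.38%) rose and 8 (3.81%) fell by the edgeR test, beside 6.21% and 7.11% of all transcripts, and the median log2 fold change was -0.07, against 0.00 for all. That median has no settled sign: it was -0.16 without replicate 2 and 0.0077 without replicate 3 of Rps6 het, Trp53 null, and it also moved by over 1.5 times without replicate 1 of that genotype (-9.9e-05) and without replicate 1 of Rps6 het, Trp53 WT (-0.036). One of the 5 is ENSMUST00000177150.1, for which again no test is given; its fitted log2 fold change was 2.59, and 3.60 without replicate 1 of Rps6 het, Trp53 WT. ENSMUST00000156068.2 rose by 0.53 ± 0.079 (SE) on the log2 scale (adjusted p = 0.000349, edgeR) and ENSMUST00000136359.7 by 0.41 ± 0.081 (adjusted p = 0.00322). ENSMUST00000217223.1 fell by 0.45 ± 0.080 on the log2 scale (adjusted p = 0.00149, edgeR), and ENSMUST00000185789.2 fell by 0.39 ± 0.076 (adjusted p = 0.00326, edgeR). This contrast shares the pools of Rps6 het, Trp53 WT with that of Rps6 in Trp53 WT, so the opposite signs of these 4 transcripts in the 2 contrasts are not independent. Without replicate 2 of Rps6 het, Trp53 null, 43 members were called, 7 higher and 36 lower, or 20.5% of the members beside 12.7% of all transcripts in the same refit, against 6.19% beside 13.3% with all pools. Since the samples are bulk tissue, a change in the cells present and a change in RNA per cell cannot be told apart in any of these contrasts.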

How the data were processed

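RNA and RPF libraries of 4 genotypes with 3 pools each, 24 libraries in all, were read from one table of raw counts per transcript that the authors deposited. The submitters' processing notes name Bowtie2, UMI-tools and the builds GRCm38 and mm10, without versions or roles; read filters and the annotation release are not given in the sources used here. All 24 columns were matched to samples by name. Of the transcript IDs, 0 matched the name tables used here, so the gene lists and cell type markers chosen for the study were not run, and reads shared with near-identical or overlapping genes could not be assessed.

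RNA counts were tested with the edgeR 4.0.16 quasi-likelihood test in R 4.3.3: TMM scaling, filterByExpr (minimum count 10, minimum total 15), all 12 RNA libraries in one model of the 4 genotypes without covariates, and Benjamini-Hochberg adjustment over the 14411 transcripts kept. A transcript with an adjusted p under 0.05 is called, and levels are CPM on TMM-scaled totals, with a prior count of 2 for log2 values. The members' share of a library was compared by exact permutation tests over pools. Scripts were tested on simulated data. Named transcripts are the 10 most abundant members, those at the limits of the rule, and the 2 called members with the smallest p per contrast and direction; the 2 transcripts most like the leading one outside these were named after their values were seen. The members, lists and rules were chosen with earlier results of these data known. Alternatives were the replicate number as a block, DESeq2 size factors, no filter, the DESeq2 1.42.0 Wald test, TMM without the members, other limits for the members, and leaving out each library. Pools are separate embryos, but there are only 3 pools per genotype. The edgeR p-values rest on a spread within genotypes that is estimated over all 12 RNA libraries. Pools outside a contrast thus bear on its p-values, and the variable members' spread differed between genotypes.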

Additional observations from a re-analysis of the deposited data

Results flagged for a closer look

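The Rps6 change in Trp53 WT differed from that in Trp53 null, by the interaction test of edgeR at an adjusted p under 0.05, in 44 members. These were 21% of the members, beside 9.55% of all transcripts. Among the named ones, the difference between the log2 fold changes was 0.76 for ENSMUST00000217223.1, 0.53 for ENSMUST00000185789.2, -0.76 for ENSMUST00000156068.2 and -0.53 for ENSMUST00000136359.7, and these 4 calls held in every refit run. It was 0.88 for ENSMUST00000175096.1, 1.36 for ENSMUST00000083242.1 and 0.95 for ENSMUST00000084010.1, whose calls were lost when any one of several pools was left out. These 3 are variable members, and the part of the spread between pools of one genotype in these values was not tested.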

How the results depend on the processing

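The members' counts of calls moved more with the processing than the named changes. Of 396 refits of 22 named changes, 337 kept direction and call, 59 lost the call alone and 0 reversed. The losses were in ENSMUST00000083242.1, ENSMUST00000084010.1, ENSMUST00000175096.1 and ENSMUST00000228850.1. The 337 include all 18 refits of each Trp53 change of ENSMUST00000177150.1, for which no test is given. For Rps6 in Trp53 WT, 70 members were called. The count was 106 with no filter on low counts, 42 by DESeq2 and 28 to 94 leaving out each library. These were 33.3%, 50.5%, 20%, 13.3% and 44.8% of the members, beside 24.8%, 16.7%, 22.1%, 15.2% and 24.5% of all transcripts. By DESeq2 the members' share was the lower one. For Rps6 in Trp53 null the count was 0, against 1 with no filter, 1 by DESeq2 and 0 to 21 leaving out each library. Each count of 1 was 0.476% of the members, beside 0.13% of all transcripts with no filter and 0.312% by DESeq2. The 21 were 10% of the members, beside 0.322% of all transcripts. The interaction gave 44, against 94 with no filter, 28 by DESeq2 and 6 to 85 leaving out each library. These were 21%, 44.8%, 13.3%, 2.86% and 40.5% of the members, beside 9.55%, 7.95%, 9.96%, 4.74% and 12.4% of all transcripts. Trp53 in Rps6 WT gave 2, against 75 with no filter, 4 by DESeq2, 1 for members with at least 5000 RNA counts and 1 to 58 leaving out each library. Of the members kept, these were 0.952%, 35.7%, 1.9%, 0.769% and 0.476% to 27.6%. Of all transcripts, 0.118%, 1.17%, 0.444% and 0.118% were called in the first 4 settings. Leaving out a library, 0.0411% to 0.11% were called where the members' count was 1, and 0.725% where it was 58. Where leaving out a library gave 1 call, it was ENSMUST00000177150.1, a member only through its Trp53 null pools. Trp53 in Rps6 het gave 13, against 23 with no filter, 8 for members with at least 5000 RNA counts and 11 to 43 leaving out each library. The members' shares were 6.19%, 11%, 6.15%, 5.24% and 20.5%, beside 13.3%, 9.25%, 13.3%, 7.9% and 12.7% of all transcripts. Leaving out replicate 1 of Rps6 WT, Trp53 WT and replicate 2 of Rps6 het, Trp53 null together, chosen after seeing the data, gave 34, 79, 31 and 55 calls for Rps6 in Trp53 null, the interaction, Trp53 in Rps6 WT and Trp53 in Rps6 het. These were 16.2%, 37.6%, 14.8% and 26.2% of the members, beside 0.433%, 10.1%, 0.398% and 11.8% of all transcripts. The cause of these moves was not tested. The limit of 5000 RNA counts left 130 of the 210 members. The members' share of a library differed between Trp53 null and Trp53 WT in Rps6 WT by 1.00 percentage points without the leading member and by 1.38 to 2.21 leaving out each library; in Rps6 het it differed by -0.24 to 0.606. In Rps6 het against Rps6 WT the share differed by 0.178 to 0.883 in Trp53 WT and by -1.51 to -0.62 in Trp53 null. DESeq2 size factors and TMM without the members moved no median of all transcripts by over 0.1.

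With the replicate number as a block, 84 members were called for the interaction and 24 for Trp53 in Rps6 WT, and the other counts stayed within 1.5 times. The 84 were 40% of the members, beside 13.9% of all transcripts, and the 24 were 11.4%, beside 0.326%. Same-numbered RNA pools of different genotypes correlated in their deviations at -0.19 to 0.135 over 18 pairs, with 2 pairs over 0.1. Their median r was 0.061, against -0.032 for pairs of different number. Of 12 libraries, 5 were most like one of their own number. Outside Rps6 het, Trp53 WT, the variable members' median deviation was -0.28 to -0.22 in replicate 1 and 0.17 to 0.58 in replicate 2. In that genotype it was 0.11 and -0.10. Whether same-numbered pools were handled together was not tested.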
